A study of Mus musculus with 16 samples.

Results

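Iron absorption and storage were followed through 9 genes of the 45513 in the count files: Slc40a1, Cybrd1, Slc11a2, Heph, Fth1, Ftl1, Tfrc, Hmox1 and Hfe. The genes were chosen by name for their part in intestinal iron handling, all 9 were found under their symbols, and all 9 passed the filter on low counts. The 16 libraries come from the small intestines of 8 mice. From each mouse 1 library was made of live EpCAM+tdTom+ cells and 1 of live EpCAM+tdTom- cells, EpCAM being a surface protein of epithelial cells. All mice were Atoh1(WT)CreERT2 R26RtdTom, so both fractions carry the same alleles and had the same treatment. Cre recombinase, activated by tamoxifen and placed behind the coding sequence of Atoh1 (the transcription factor that sets secretory fate), switches on the red reporter tdTomato in cells that express Atoh1 and leaves it on in their descendants. The tdTom+ fraction is thus a lineage-labelled population of several secretory cell types, and the tdTom- fraction holds every other EpCAM+ cell, including secretory cells in which recombination failed. Per the labels, and per the methods for defining the secretory signature, the mice received 1 mg of tamoxifen on each of 3 days. Mice of both sexes were 8 to 16 weeks old per the methods.

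Dietary iron reaches the enterocyte mostly as ferric iron. The brush border reductase encoded by Cybrd1 reduces it, the divalent metal transporter DMT1 (Slc11a2) imports it with protons, and what is not needed at once is stored in the ferritin shell built of heavy (Fth1) and light (Ftl1) chains. Ferroportin (Slc40a1) exports iron at the basolateral side, where the copper-dependent oxidase hephaestin (Heph) returns it to the ferric form for transferrin. Transferrin receptor 1 (Tfrc) brings transferrin-bound iron into cells and is known for its high level in dividing cells, Hfe encodes an MHC class I-like partner of that receptor whose loss causes iron overload, and heme oxygenase 1 (Hmox1) frees iron from heme.

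Several of these mRNAs are also controlled after transcription by the iron regulatory proteins, which bind a hairpin called the iron-responsive element when iron is scarce. In the 5′UTR the bound protein blocks translation, as in the ferritin chains, and in the 3′UTR of Tfrc it protects the mRNA from decay. The hairpins are shown because they sort the members in which a match was found. For Tfrc the RNA level bears directly on this control, and for the others with a match it acts on protein made from the RNA. The annotated transcripts of 21767 coding genes (GENCODE M21, GRCm38) were searched on the transcript strand for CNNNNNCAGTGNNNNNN in which all 5 bases on either side of the loop pair (G with T allowed). Of these genes, 0.129% held a match in a 5′UTR and 0.583% in a 3′UTR. Among the 9 iron genes, Fth1, Ftl1 and Slc40a1 had a match in the 5′UTR and Tfrc had 4 matches in the 3′UTR. No match in the other 5, Slc11a2 among them, means only that this pattern of letters was not found in their annotated UTRs. Whether their RNA level bears on this control is left unsorted here. The 27 bases of the Fth1, Ftl1 and Tfrc sites follow (the Slc40a1 site is named only), 5′ to 3′ on the transcript strand, as DNA letters, with the 6 bases of the loop in capitals.
Fth1, exon 1 of 4, 5′UTR, chr19:9982733-9982759, plus strand: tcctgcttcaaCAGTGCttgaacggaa
Ftl1, exon 1 of 4, 5′UTR, chr7:45459780-45459806, minus strand: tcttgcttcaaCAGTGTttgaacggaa
Tfrc, exon 19 of 19, 3′UTR, chr16:32631220-32631246, plus strand: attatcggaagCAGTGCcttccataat
Tfrc, same exon, chr16:32631599-32631625, plus strand: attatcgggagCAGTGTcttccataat
Tfrc, same exon, chr16:32631664-32631690, plus strand: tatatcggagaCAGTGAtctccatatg
Tfrc, same exon, chr16:32631711-32631737, plus strand: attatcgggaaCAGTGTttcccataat
The ferritin hairpins share the stem bases next to the loop, and the 4 Tfrc hairpins share the letters tatcgg in the 5′ arm of the stem. These RNA counts do not measure binding of the regulatory proteins or translation.

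The libraries held 17116405 to 25323567 counts assigned to genes. Levels are given as CPM, counts relative to library size after TMM scaling, and a floor of 3 counts corresponded to 0.118 to 0.175 CPM. The sort was first checked against markers. All 8 goblet and all 8 Paneth cell markers were higher in tdTom+, with Muc2 at 13365 ± 4785 CPM against 71.4 ± 14.2 and Lyz1 at 28112 ± 7509 against 160.6 ± 24.1 (mean ± SD, n = 8 mice, here and throughout). Enteroendocrine markers were also higher (8 of 8), as were 6 of 7 tuft cell and 3 of 8 stem cell markers, and 4 of 8 lymphocyte markers were lower. All 8 absorptive markers were lower in tdTom+, with Alpi at 131.4 ± 56.9 CPM against 1175 ± 360 and Fabp1 at 382 ± 171 against 2725 ± 692. The ileal marker Fabp6 stayed at or below 9 counts in all libraries, and the methods name the proximal 15 cm of the small intestine. In bulk samples such as these, fewer cells that express a gene and less RNA of it per cell cannot be told apart, which holds for each difference below.

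Of the 9 iron genes, 2 were higher in tdTom+ (Cybrd1 and Hmox1), 5 were lower (Slc40a1, Fth1, Slc11a2, Heph and Ftl1) and 2 did not pass the test (Tfrc and Hfe), by the quasi-likelihood test of edgeR at an adjusted p of 0.01 over 15323 genes. Of all genes tested, 49.6% were called, 22.7% as higher and 27% as lower, so many genes of any kind differ between these fractions. CPM values of the fractions did not overlap for 3 members (Cybrd1, Slc11a2 and Fth1), against 31.6% of all genes tested (14.6% higher and 17% lower in tdTom+). The middle 50% of all genes tested had log2 fold changes from -0.42 to 0.34. With the mouse entered as a block all 9 members were called, against 55.8% of all genes. The block also gave every member a smaller SE, such as 0.11 in place of 0.26 for Slc40a1. Unless stated, edgeR values here and below are from the fit without it. The replicate number in the sample titles joins the libraries of 1 mouse, and the blocked value is given below for each member or further gene list whose calls it changed. Among the markers above, the block gave 7 of 7 tuft and 4 of 8 stem cell markers higher, and 6 of 8 lymphocyte markers lower. By limma-voom 4 of 7 tuft and 4 of 8 stem cell markers were higher, and 0 of 8 lymphocyte markers were lower.

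**Figure D1:**
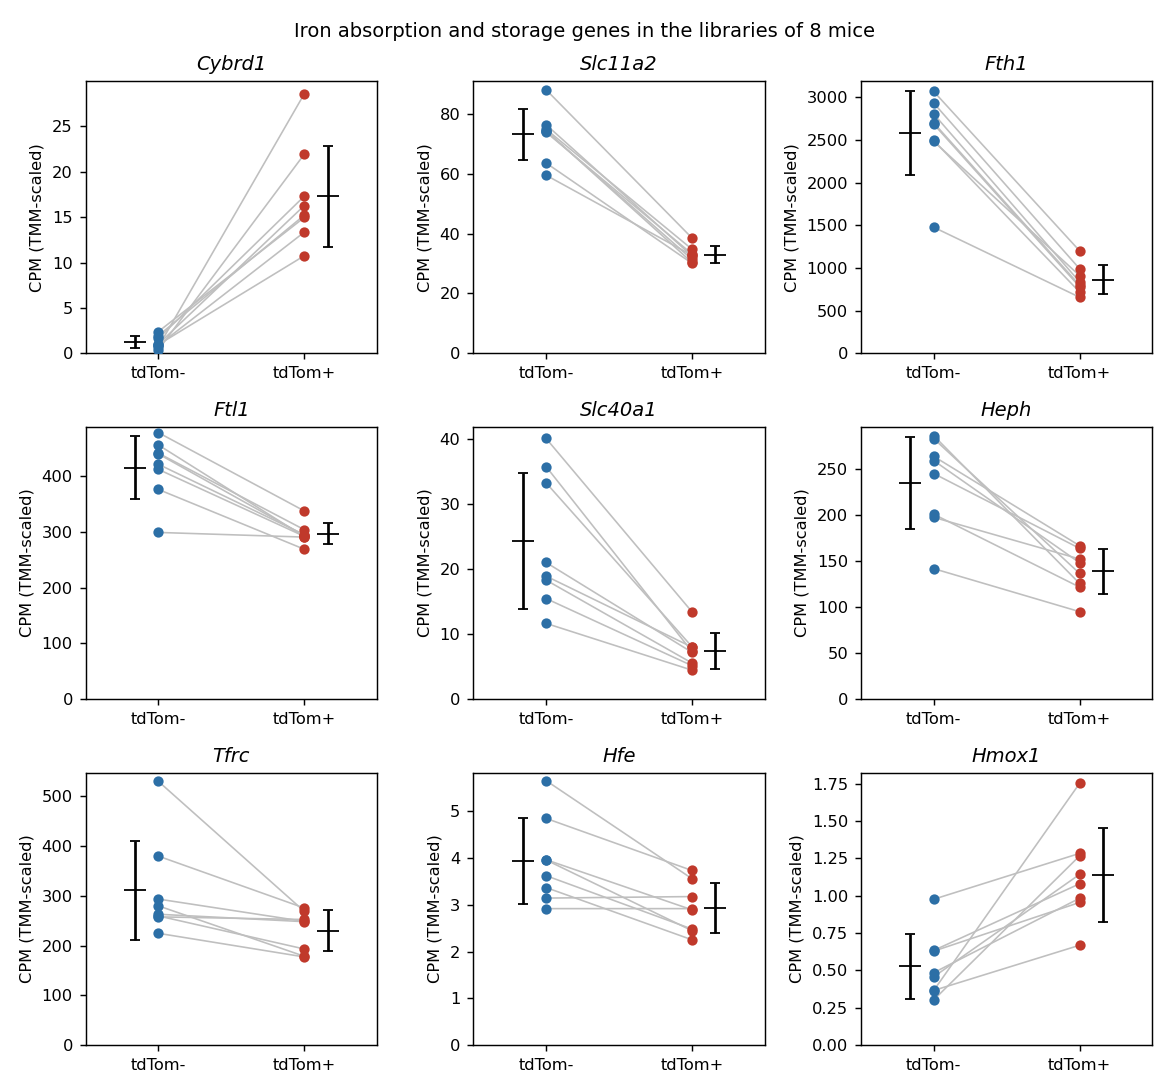
CPM of each iron gene (y axes, linear from 0) in the tdTom- (blue) and tdTom+ (red) libraries, with grey lines joining the libraries of 1 mouse and black marks giving the mean ± SD of 8 mice. Cybrd1 lies at 10.7 CPM or above in tdTom+ and at 2.40 or below in tdTom-, while the lines of Fth1, Slc11a2 and Slc40a1 all fall.

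Uptake at the brush border showed opposite changes in its reductase and its transporter. Cybrd1 (chromosome 2, 71117923 to 71142926, GRCm38) had a lowest value of 10.7, a median of 15.7 and a highest value of 28.6 CPM in tdTom+. In tdTom- its lowest value was 0.402, its median 0.985 and its highest 2.40 CPM. Every tdTom+ library was above every tdTom- library. Between 249 and 571 reads were counted per tdTom+ library and between 8 and 46 per tdTom- library, so the tdTom- level was low but above the floor of 3 counts in each library. The mean was 17.3 ± 5.58 CPM against 1.25 ± 0.68, a log2 fold change of 3.80 ± 0.28 (SE) or 13.96-fold (adjusted p = 1.61e-09, edgeR), and Cybrd1 was higher in tdTom+ in 8 of 8 mice. Within mice the log2 difference ran from 2.59 in mouse 1 to 5.47 in mouse 4. The change exceeded the 95th percentile of all genes tested, which was 2.05.

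Slc11a2 (chromosome 15, 100387898 to 100425072) moved the other way. It had a lowest value of 30.1, a median of 32.6 and a highest value of 38.5 CPM in tdTom+, against 59.5, 74.3 and 88.0 CPM in tdTom-. The fractions did not overlap, and the tdTom+ libraries were close together, with a coefficient of variation of 8.3%. The log2 fold change was -1.15 ± 0.08 (2.22-fold lower, adjusted p = 3.3e-10, lower in 8 of 8 mice). The changes of Cybrd1 and Slc11a2 differed by 4.95 ± 0.91 (SD) on the log2 scale within mice (exact sign-flip test, two-sided p = 0.00781, the smallest that 8 mice allow).

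Both ferritin chains fell in tdTom+, the heavy chain further than the light chain. Fth1 (chromosome 19, 9982703 to 9985092), whose product has the ferroxidase site, had a lowest value of 657, a median of 818 and a highest value of 1202 CPM in tdTom+. In tdTom- the values were 1477, 2693 and 3069 CPM. The lowest tdTom- library, that of mouse 7, was still above the highest tdTom+ library. The log2 fold change was -1.58 ± 0.15 (2.99-fold lower, adjusted p = 2.83e-08, lower in 8 of 8 mice). Ftl1 (chromosome 7, 45457944 to 45459884), the chain that helps form the iron core, ran from 268.9 to 337.6 CPM in tdTom+ with a median of 292.8. In tdTom- it ran from 299.0 to 478.0 CPM with a median of 430.6. The fractions overlapped through mouse 7, whose tdTom- value of 299.0 CPM lay below the tdTom+ values of mice 5 and 6. Its log2 fold change was -0.49 ± 0.08 (1.40-fold lower, adjusted p = 6.57e-05, lower in 8 of 8 mice).

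Per kilobase of exon, Fth1 was 9.54 ± 0.89 times Ftl1 in tdTom- and 4.47 ± 0.63 times Ftl1 in tdTom+. The size of these ratios depends on the exon lengths used, 866 bases for Fth1 and 1340 for Ftl1. The change between the fractions does not. The ratio ran from 7.64 to 10.3 and from 3.50 to 5.51, so the fractions did not overlap. Within mice the change of Fth1 minus that of Ftl1 was -1.10 ± 0.15 (SD) log2 units, negative in 8 of 8 mice (exact sign-flip p = 0.00781, the smallest possible). Mouse 7 had the lowest ratio in each fraction. With the counts of near-identical genes added, an alternative chosen after seeing the data, the ratios were 6.06 ± 0.58 and 2.85 ± 0.40, again without overlap (4.84 to 6.57 against 2.23 to 3.52).

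**Figure D2:**
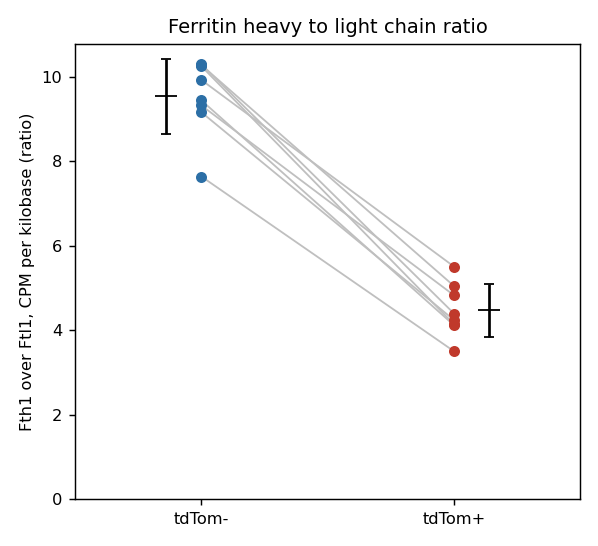
Ratio of Fth1 to Ftl1 in CPM per kilobase of exon (y axis, linear from 0) in the tdTom- and tdTom+ libraries, with grey lines joining the libraries of 1 mouse and black marks giving the mean ± SD. The tdTom- ratios lie between 7.64 and 10.3 and the tdTom+ ratios between 3.50 and 5.51.

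Reads of near-identical genes limit the ferritin levels. The authors counted each read at its primary alignment, and 50.9% of the 50-base words of the Ftl1 transcripts, 50 bp being the read length, also occur in transcripts of other genes. The 5 genes that share at least 1% of these words held 63.9% as many counts as Ftl1. Among them the copy Ftl1-ps1 held 1990 to 4472 counts per library, 42.3% of the Ftl1 count in total, and its own log2 fold change was -0.53 (adjusted p = 1.78e-05). For Fth1 58 of 3654 words were shared (1.59%), all with Gm6977, whose counts came to 4.26% of those of Fth1. These words come from all annotated transcripts of Fth1 and outnumber the 866 bases of exon counted. The share within the counted exons can therefore be higher. With the counts of all such copies added, the log2 fold changes were -1.58 for Fth1 and -0.50 for Ftl1. Slc40a1, Heph, Tfrc and Hmox1 shared no such word with another gene, and the other members shared under 2%.

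Both export genes fell in tdTom+. Slc40a1 (chromosome 1, 45908068 to 45926523), the only known cellular iron exporter, had a lowest value of 4.46, a median of 7.28 and a highest value of 13.5 CPM in tdTom+, against 11.7, 20.0 and 40.1 CPM in tdTom-. The ranges overlapped, because mice differed in level in both fractions. Mouse 5 was highest and mouse 6 lowest in both. Within mice the log2 difference ran only from -2.27 to -1.23. The log2 fold change was -1.71 ± 0.26 (3.28-fold lower, adjusted p = 1.66e-05, lower in 8 of 8 mice). Macrophages also express ferroportin, and markers of these cells were lower in tdTom+ as well. Both fractions were sorted as EpCAM+ cells. The summed level of 8 macrophage markers was 1.33 to 2.67 CPM in tdTom+ and 3.53 to 12.3 CPM in tdTom-, both of the 2 that could be tested (Cd68 and Mrc1) were lower, none of the 8 was at 0 in every library, and Adgre1 averaged 0.0428 and 0.353 CPM. Their part in the difference of Slc40a1 was not tested. Heph (chromosome X, 96455359 to 96574485) ran from 95.1 to 166.9 CPM in tdTom+ with a median of 142.6, and from 141.9 to 286.6 CPM in tdTom- with a median of 252.4. The fractions overlapped, with the lowest tdTom- value again in mouse 7. For Heph the log2 fold change was -0.76 ± 0.14 (1.69-fold lower, adjusted p = 0.000118, lower in 8 of 8 mice).

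The genes of transferrin-bound iron had the log2 fold changes nearest to 0 of the 9 members, though neither was told apart from Ftl1. Tfrc (chromosome 16, 32608920 to 32632794) ran from 177.0 to 275.5 CPM in tdTom+ with a median of 248.2, and from 224.5 to 530.2 CPM in tdTom- with a median of 271.4. The tdTom- libraries of mice 7 and 8, at 530.2 and 379.9 CPM, stood above the other 6, which reached 293.5 at most. The log2 fold change was -0.43 ± 0.16, which missed the threshold (adjusted p = 0.0271, edgeR). With the mouse as a block it was -0.40 ± 0.09 and passed (adjusted p = 0.00186), and all 8 mice had the lower value in tdTom+, with log2 differences of -0.03 in mouse 5 to -0.98 in mouse 7. The markers of proliferation gave 0 calls of 8 by edgeR, by DESeq2 and by limma-voom, and 1 of 8 at an unadjusted p of 0.05, with a median log2 fold change of 0.07 and summed levels of 405 to 562 CPM in tdTom+ and 355 to 690 in tdTom-. Hfe (chromosome 13, 23702034 to 23710854) was low in both fractions, 2.25 to 3.74 CPM in tdTom+ with a median of 2.91 and 2.92 to 5.66 in tdTom- with a median of 3.79, on 39 to 117 counts. Its log2 fold change of -0.42 ± 0.15 missed the threshold (adjusted p = 0.0216) and passed with the mouse as a block (-0.42 ± 0.11, adjusted p = 0.00516). The fractions of mice 2 and 5 differed by 0.0145 log2 units or less, and the other 6 mice were lower in tdTom+.

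Hmox1 (chromosome 8, 75093591 to 75100596), induced by heme and by oxidative stress, was the other gene to rise. It ran from 0.668 to 1.75 CPM in tdTom+ with a median of 1.11, and from 0.301 to 0.976 CPM in tdTom- with a median of 0.470. The ranges overlapped, and only 6 to 35 counts per library lie behind these values. Its log2 fold change was 1.12 ± 0.23 (2.17-fold higher, adjusted p = 0.000431, higher in 8 of 8 mice), with log2 differences within mice from 0.363 to 2.003. The macrophage markers above, which mark cells rich in heme oxygenase 1, were lower in tdTom+. Their part in the Hmox1 values was not tested.

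The decrease of the 7 genes with negative values was set against that of the 8 absorptive markers, whose mean log2 CPM fell by 3.03 ± 0.30 (SD) in tdTom+. All 9 iron genes lay above this change in 8 of 8 mice. The difference was smallest for Slc40a1, at 1.37 ± 0.28 log2 units, and Fth1, at 1.45 ± 0.27, and it reached 2.55 ± 0.36 for Ftl1 and 6.84 ± 1.08 for Cybrd1. Each of the 9 exact sign-flip tests gave p = 0.00781, the smallest possible, and the same value after Benjamini-Hochberg adjustment over the 9 comparisons. The iron genes thus fell less than the absorptive markers, or rose. Most genes of any kind did so too, since the 5th percentile of the log2 fold changes of all genes tested was -1.77. The share of all genes above the marker change in 8 of 8 mice was not computed. The comparison therefore does not set the iron genes apart from other genes.

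**Figure D3:**
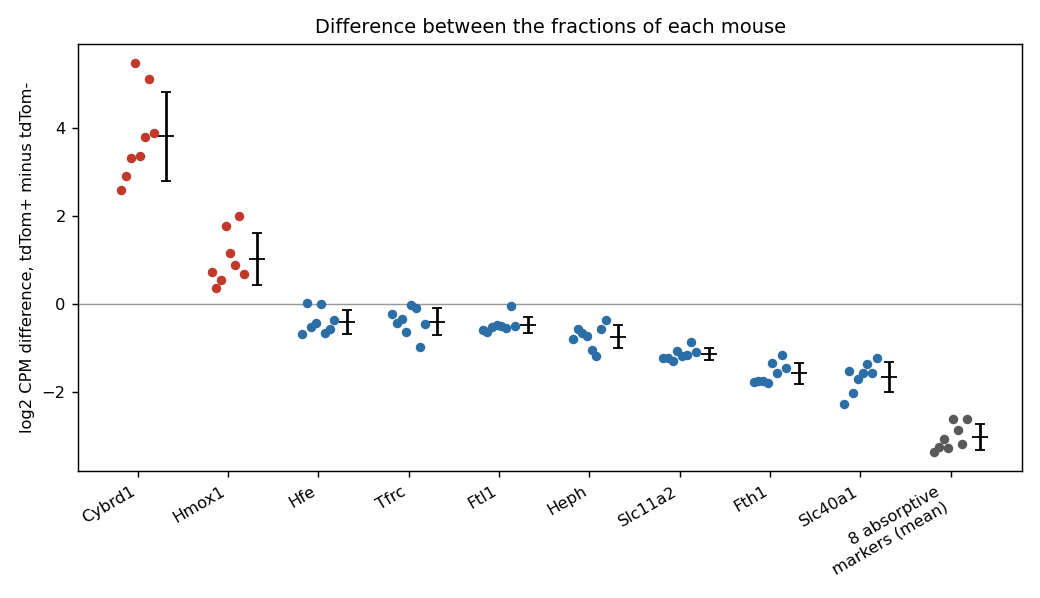
Difference in log2 CPM between the tdTom+ and tdTom- library of each mouse (y axis) for the 9 iron genes, ordered by mean, and for the mean of 8 absorptive markers (grey). Points are mice, black marks give the mean ± SD, red marks genes with a mean above 0 and blue those below. Cybrd1 and Hmox1 lie above 0 in every mouse, and the absorptive markers lie lowest.

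Among the 36 pairs of iron genes, the changes of 31 differed within mice (exact sign-flip tests, Benjamini-Hochberg adjusted p under 0.05). The share among pairs of other genes was not computed, so this count does not set the iron genes apart. Slc40a1 and Fth1, exporter and store, differed by -0.08 ± 0.30 (SD, adjusted p = 0.52). The change of Slc11a2 minus that of Heph was -0.40 ± 0.27 (adjusted p = 0.0188), and minus that of Fth1 it was 0.43 ± 0.17 (adjusted p = 0.01). The other pairs that did not differ were Heph and Tfrc, Ftl1 and Tfrc, Ftl1 and Hfe, and Tfrc and Hfe, with mean differences of -0.34 to 0.00 and SDs of 0.37 to 0.53.

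Per kilobase of exon the order of the levels was led by the same 5 genes in both fractions. In tdTom- it was Fth1 (2980 ± 564 CPM per kilobase), Ftl1 (310.0 ± 41.8), Tfrc (50.3 ± 16.1), Heph (30.7 ± 6.57), Slc11a2 (11.5 ± 1.35), Slc40a1 (2.70 ± 1.17), Hfe (1.10 ± 0.26), Hmox1 (0.243 ± 0.101) and Cybrd1 (0.233 ± 0.127). In tdTom+ the first 5 were Fth1 (995 ± 199), Ftl1 (221.4 ± 14.4), Tfrc (37.2 ± 6.58), Heph (18.1 ± 3.15) and Slc11a2 (5.19 ± 0.43). Cybrd1 (3.24 ± 1.05) was sixth in tdTom+ and last in tdTom-, and was followed in tdTom+ by Hfe (0.821 ± 0.150), Slc40a1 (0.823 ± 0.310) and Hmox1 (0.528 ± 0.146), ordered by their mean log2 values. Of the 16 neighbours in these orders 13 differed (exact sign-flip tests, adjusted p of 0.0192 or below). Those that did not were Hfe and Slc40a1 in tdTom+ (adjusted p = 0.656), Slc40a1 and Hmox1 in tdTom+ (adjusted p = 0.0893) and Hmox1 and Cybrd1 in tdTom- (adjusted p = 0.258).

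**Figure D4:**
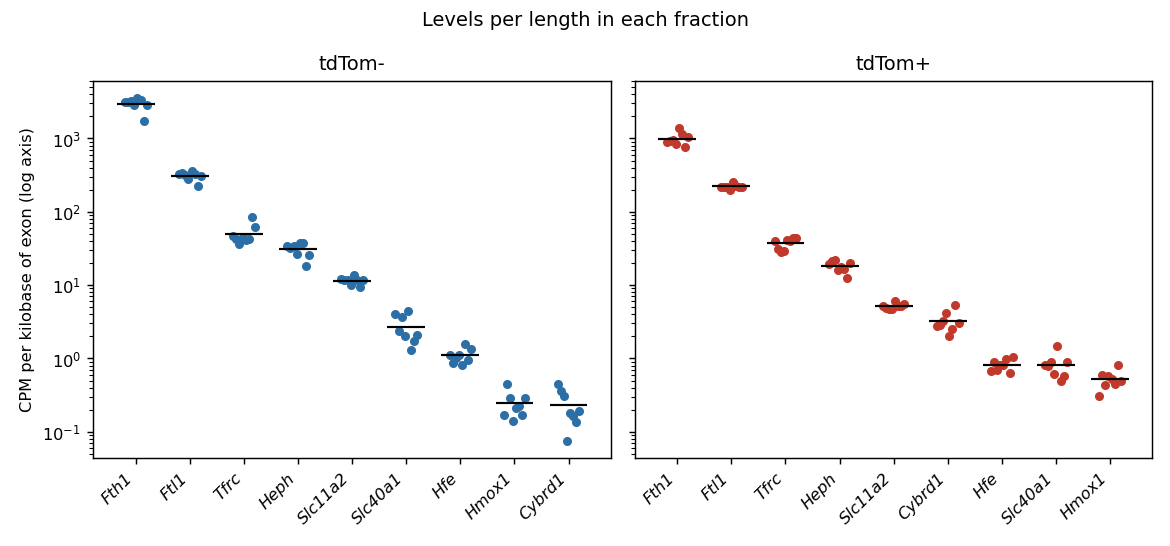
CPM per kilobase of exon (y axis, log scale) of the iron genes in the tdTom- and tdTom+ libraries, each ordered by mean log2 level. Points are mice and bars are means. Fth1 leads in both at 2980 and 995 CPM per kilobase, and Cybrd1 is last in tdTom- and sixth in tdTom+.

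Libraries of 1 fraction also differed in the levels of the absorptive markers. Each iron gene was therefore compared, within each fraction over 8 libraries, with the absorptive score (the mean log2 CPM of the 8 absorptive markers). Points of a fraction share the TMM scaling of their library with the score. In tdTom- Fth1 followed the score, with Pearson's r = 0.99 (exact permutation p = 0.000223, adjusted over the 18 relations 0.00312) and Spearman's rho = 0.93 (exact p = 0.00223, adjusted 0.0134). Without mice 7 and 8, the libraries farthest from the median score, r was 0.96. Heph followed it with r = 0.96 (exact p = 0.000347, adjusted 0.00312) and rho = 0.88 (exact p = 0.00724, adjusted 0.0326), and r was 0.93 without these libraries. Ftl1 followed it with r = 0.96 (exact p = 0.00211, adjusted 0.00759) and rho = 0.95 (exact p = 0.00114, adjusted 0.0103), and r was 0.92 without them. None of these 3 passed the adjusted p over the 6 remaining libraries (0.0625 for Fth1, 0.075 for Heph and Ftl1). Slc11a2 had r = 0.80 (exact p = 0.0113, adjusted 0.0291), rho = 0.50 (exact p = 0.216, adjusted 0.389) and an r of 0.91 without them (adjusted p = 0.167, exact permutation). Tfrc ran against the score, with r = -0.92 (exact p = 0.0071, adjusted 0.0212) and rho = -0.69 (exact p = 0.0694, adjusted 0.156), but r was -0.23 without mice 7 and 8, so this relation rests on those libraries. In tdTom+ Fth1 had r = 0.93 (exact p = 0.00139, adjusted 0.00625), a rho of 1 (exact p = 4.96e-05, adjusted 0.000893) and r = 0.99 without mice 5 and 7 (adjusted p = 0.025, exact permutation). Ftl1 in tdTom+ passed by rho = 0.86 (exact p = 0.0107, adjusted 0.0386) and not by r = 0.62 (exact p = 0.109, adjusted 0.217). Cybrd1 fell as the score rose in tdTom+, with r = -0.93 (exact p = 0.00124, adjusted 0.00625) and rho = -0.79 (exact p = 0.0279, adjusted 0.0838), and r was -0.68 (exact p = 0.14) without mice 5 and 7. Of the 18 relations, 7 passed an adjusted p of 0.05 by Pearson's r and 5 by Spearman's rho. Without the 2 farthest libraries 1 passed by Pearson's r, that of Fth1 in tdTom+. Slc40a1, Hmox1 and Hfe passed in neither fraction by either measure. How many of all genes tested would pass was not computed, so the counts of 7 and 5 do not set the iron genes apart.

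**Figure D5:**
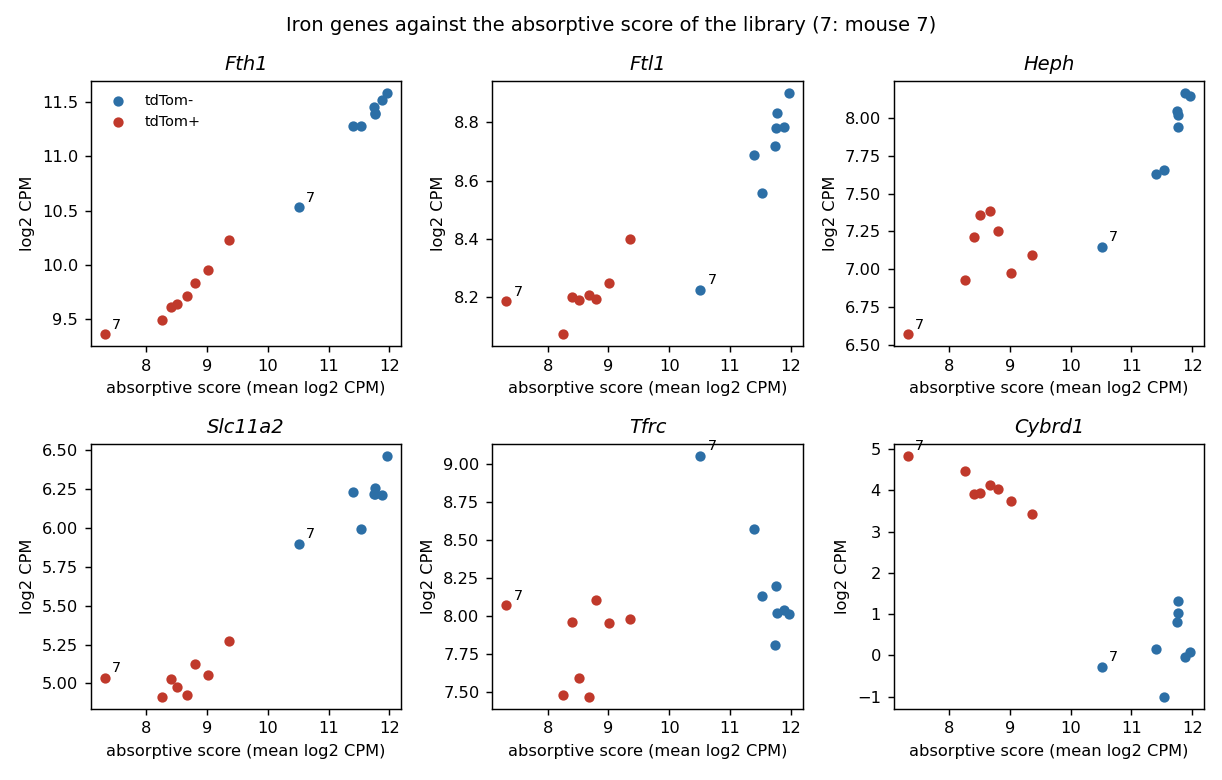
Log2 CPM of 6 iron genes (y axes) against the absorptive score of the library (x axes, mean log2 CPM of 8 absorptive markers) in tdTom- (blue) and tdTom+ (red), with mouse 7 marked. Fth1 rises with the score in both fractions, Cybrd1 falls with it in tdTom+, and the tdTom- library of mouse 7 has the lowest score and the highest Tfrc value of its fraction.

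The wider iron and heme pathways and genes tied to them were read from 9 further lists of 84 genes, of which 71 were tested. Of these, 8 were higher in tdTom+, 40 were lower and 23 were not called, which is 67.6% called against 49.6% of all genes tested, with a median log2 fold change of -0.42 against 0.01. The lists of copper supply, of targets of the stress factor NRF2 and of hypoxia targets are included but are not iron or heme genes. Of their 4, 6 and 7 tested genes, 100%, 100% and 85.7% were called, which raises the share.

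Heme handling had 7 of 8 genes lower and 1 higher. Slc46a1, which imports folate and also heme, fell from 161.2 ± 63.8 to 20.0 ± 10.5 CPM (log2 fold change -3.01 ± 0.35, adjusted p = 5.63e-07). The heme exporter Flvcr1 fell from 92.8 ± 33.2 to 13.4 ± 2.68 CPM (-2.79 ± 0.26). Slc48a1, which moves heme out of endosomes and lysosomes, rose from 7.03 ± 2.02 to 18.9 ± 2.19 CPM (1.43 ± 0.14, adjusted p = 4.55e-08). Heme synthesis had 6 of 8 tested genes lower and 0 higher by edgeR (0 higher also by DESeq2, by limma-voom and at an unadjusted p of 0.05). Its entry enzymes were Alas1 at -1.16 ± 0.08 and Alad at -0.85 ± 0.06, and the last enzyme Fech, which inserts the iron, fell by 0.25 ± 0.07 on the log2 scale (adjusted p = 0.00445). The erythroid form Alas2 was too low to test, and the summed level of 8 erythroid markers was at most 0.753 CPM in any library, with Hbb-bs at 7 counts or fewer.

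Other routes of uptake split. The metal importer Slc39a8 (ZIP8) rose from 11.03 ± 4.53 to 41.9 ± 8.76 CPM (1.92 ± 0.20, adjusted p = 1.01e-07) and Slc39a14 (ZIP14) fell from 200.2 ± 40.3 to 85.1 ± 3.75 CPM (-1.23 ± 0.11, adjusted p = 2.06e-08). Of the 7 genes tested in this list, 2 were higher, 1 was lower and 4 were not called by edgeR (2 higher and 1 lower also by DESeq2). Without mouse 4 or mouse 5 the count of higher genes was 1, and without mouse 7 it was 3. Not called were among others the ferrireductases Steap1, Steap2 and Steap3. The other gene called higher was the lipocalin receptor Slc22a17, at 1.66 and with a mean of 1.2 CPM in tdTom+, which falls outside the rule for named genes and was picked after its value was seen. Transferrin itself, Tfr2 and ceruloplasmin were too low to test. Copper supply, on which hephaestin depends, had 4 of 4 genes lower. The importer Slc31a1 was at -0.85 ± 0.10, and the copper pumps Atp7a and Atp7b were at -0.82 ± 0.15 and -1.37 ± 0.12.

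Iron chaperones and ferritin turnover had 1 of 4 tested genes called by edgeR, and 2 by DESeq2, with the mouse as a block, or without mouse 3 or mouse 7. Pcbp1, a chaperone that delivers iron to ferritin, was at 231.0 ± 16.6 CPM in tdTom+ and 198.2 ± 23.4 in tdTom-, a log2 fold change of 0.22 ± 0.08 that missed the threshold (adjusted p = 0.0185) and passed with the mouse as a block (adjusted p = 0.00183). Ncoa4, the receptor for autophagy of ferritin, was at 62.6 ± 7.95 and 68.3 ± 14.1 CPM (-0.13 ± 0.12, adjusted p = 0.396). The gene called by edgeR without the block was Pcbp4, at 1.01 and under 4 CPM, again picked after its value was seen. Mitochondrial iron import and iron-sulfur cluster assembly had 9 of 14 genes lower and 0 higher by edgeR, DESeq2 and limma-voom (1 higher at an unadjusted p of 0.05, and 1 with the mouse as a block, Lyrm4 at 0.36 with an adjusted p of 0.00565 by edgeR), led by the mitoferrins Slc25a37 (-1.26 ± 0.19) and Slc25a28 (-0.85 ± 0.08).

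Among the sensors of iron and oxygen 5 of 13 tested genes were lower and 0 higher by edgeR, DESeq2 and limma-voom (0 higher also at an unadjusted p of 0.05). With the mouse as a block 6 were lower, Egln1 being added (adjusted p = 0.00162). The mRNAs of both iron regulatory proteins, which bind the hairpins shown above, were lower. Protein levels and binding were not measured. Aco1 (IRP1) fell from 320.7 ± 49.6 to 107.6 ± 12.1 CPM (-1.58 ± 0.10, adjusted p = 2.85e-10), and Ireb2 (IRP2) fell from 119.8 ± 14.5 to 89.8 ± 7.33 CPM (-0.42 ± 0.08, adjusted p = 0.000139). Egln3, a prolyl hydroxylase of the hypoxia pathway, had -2.65 ± 0.22. Epas1 (HIF-2α), known as the factor that drives Cybrd1, Slc11a2 and Slc40a1 in iron deficiency, was at 44.1 ± 11.4 CPM in tdTom+ and 36.8 ± 11.4 in tdTom- (0.26 ± 0.22, adjusted p = 0.328). Of 7 other hypoxia targets 2 were higher and 4 lower by edgeR, with Slc2a1 (2.74 ± 0.14) and Ndrg1 (1.59 ± 0.20) among the higher and Car9 (-0.91 ± 0.14) among the lower. The count of 4 was 2 by limma-voom and without any of mice 1 to 6, and 3 with the mouse as a block, where Bnip3 lost its call (adjusted p = 0.0144). Of 6 other targets of NRF2, the stress factor that also drives Hmox1 and the ferritin genes, 4 were lower and 2 higher. Nqo1 (-1.65 ± 0.14) and Srxn1 (-1.44 ± 0.13) fell and Gclc (0.45 ± 0.09) rose.

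The 3 genes whose pattern over the 16 libraries was most like each member were found by the root-mean-square difference of centred log2 CPM among 8935 genes of at least 10 CPM. For Slc11a2 they included Gm1840 at 0.07 and Gm12671 at 0.08 log2 units. For Heph they were Rfk, Clcn5 and Cdhr5, at 0.11 to 0.12. Fth1 had its copy Gm6977 at 0.07, Tcn2 at 0.08 and Ank at 0.10, and Ftl1 had its copies Ftl1-ps1 at 0.04 and Gm15590 at 0.07 with Epn1 between them. Tfrc had Got2-ps1, Timm8a1 and Gm9797, at 0.12 to 0.13, and Hfe had Kdsr, Rap2a and Selenbp1, at 0.18 to 0.20. Slc40a1, Hmox1 and Cybrd1 had no match this close. The nearest were 4930402H24Rik, Mxi1 and Abhd3 for Slc40a1, at 0.39 to 0.40, Gadd45g, Btg2 and Esyt1 for Hmox1, at 0.34 to 0.36, and Ptprn2, Adcy8 and Cxxc5 for Cybrd1, at 0.45 to 0.52.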

How the data were processed

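Each deposited file is a table of unnormalized counts, 1 per Ensembl gene. The authors made it with featureCounts, whose version the header gives as 1.5.0-p1 (exons summed by gene, reverse strand, primary alignments), on GRCm38. The submitters' processing notes list TopHat2 2.1.1, Subread 1.5.2, DESeq2 1.14.1 and GRCm38.p3. Near-identical genes can share reads. Symbols matched 44585 of 45513 identifiers. Groups came from the group label and mice from the sample title.

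Counts were fitted with edgeR 4.0.16 in R 4.3.3 over all genes (filterByExpr, TMM, quasi-likelihood test without a block, Benjamini-Hochberg, 15323 genes). The biological coefficient of variation was 19.9%. On simulated counts for 15323 genes with 200 changed, 100% were recovered with 2 false calls. The simulation gave every gene the same variation and had no mouse effect. It changed far fewer genes than differ here, and none by as little as Tfrc or Ftl1. It therefore does not test small changes or the scaling of this contrast. Log2 CPM used a prior count of 2. Exact tests used scipy 1.17.1, were two-sided and enumerated 256 sign patterns of 8 mice or 40320 pairings. DESeq2 1.42.0 and limma 3.58.1 were alternatives. The libraries of 1 mouse deviated together, with correlations of 0.245 to 0.634 (mean 0.426) against a mean of -0.06 between mice, and 8 of 8 tdTom- libraries matched their own number best. The floor covers counting error only, and SDs and SEs include the variation between mice.

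The members and gene lists were chosen with earlier results of these data known. Other genes named were, per list, the 2 highest and 2 lowest changes past the threshold with a mean of 5 CPM or more in 1 group and 8 mice of 1 direction, plus Slc46a1, Ireb2, Aco1, Epas1, Pcbp1, Ncoa4, Atp7a and Fech. A gene near Slc11a2 in pattern is not reported here.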

Additional observations from a re-analysis of the deposited data

Results flagged for a closer look

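Among 29 sets of 8 values (each iron gene in each fraction, the absorptive score in each fraction and the difference of each gene within mice), 3 held a library whose gap to the nearest other was a larger share of the range than the critical value of Dixon's test allows. Chance gives about 1 such set in 20. All 3 concern mouse 7. Its tdTom- library had a log2 CPM of 10.53 for Fth1 against 11.28 to 11.58 in the other 7. Its absorptive score in tdTom- was 10.51 against 11.40 to 11.97. Its Ftl1 difference between the fractions was -0.0408 log2 units against -0.65 to -0.48 in the other mice. Without mouse 7 the log2 fold change was -1.62 for Fth1 and -0.54 for Ftl1, against -1.58 and -0.49 with it.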

How the results depend on the processing

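The 7 calls among the 9 iron genes kept direction and threshold under each alternative that gave them a value (RLE or total-count scaling, TMM without the 10 most counted genes, DESeq2, limma-voom, no filter, thinned libraries, each mouse left out). A minimum of 10 counts in every library gave no value for Cybrd1 and Hmox1. The mouse number as replicate block, which pairs the libraries, moved Tfrc (-0.40) and Hfe (-0.42) past the threshold, as did an adjusted p threshold of 0.05 (-0.43 and -0.42), and DESeq2 with the replicate block moved Tfrc (-0.39). The block changed no other call among the members. Leaving out each mouse gave log2 fold changes of 3.58 to 4.03 for Cybrd1, -1.78 to -1.55 for Slc40a1, -1.63 to -1.45 for Fth1, -0.54 to -0.38 for Ftl1, -1.18 to -1.02 for Slc11a2, -0.81 to -0.67 for Heph, 0.94 to 1.29 for Hmox1, -0.49 to -0.31 for Tfrc and -0.48 to -0.30 for Hfe. Requiring in addition a log2 fold change of size 1 or more left 1703 genes higher and 1731 lower in all, against 3473 and 4133. It left 15 of the 40 lower genes of the further iron, heme, copper, NRF2 and hypoxia lists. Without the 2 libraries farthest from the median score, 1 relation (Fth1 in tdTom+) passed the adjusted p, against 7, with 6 libraries each. Signs turned for values near 0, and for the relation of Slc40a1 to the score in tdTom+, which was not near 0. Tfrc minus Hfe was 0.00827 with a prior count of 0.5 and -0.0818 to 0.0628 with a mouse left out, and Ftl1 minus Hfe was -0.158 to 0.0103. The relation of Tfrc to the score in tdTom+ was 0.25 with total counts, 0.0707 with the marker median and 0.52 without the 2 libraries. Without the 2 libraries that of Slc40a1 in tdTom+ was -0.24, against 0.56 over all 8, and that of Hfe in tdTom- was -0.10. The median log2 fold change of all genes was 0.12 with 10 counts required and 0.11 without mouse 3, against 0.01. Depth limits Hmox1, Hfe and the tdTom- level of Cybrd1. The cause of these shifts was not tested.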
